A study of Rattus norvegicus with 4 samples.

Results

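Proteins that the liver secretes fold in the endoplasmic reticulum (ER), and the genes described here encode the chaperones that fold them there, together with the sensors and the disposal machinery of the unfolded protein response (UPR). A list of 33 rat genes was named for this group, and members were taken by gene symbol. Of these, 32 were matched among the 16992 genes of the liver tables, and 31 were above 2 in every library in TPM, a transcript level scaled to gene length and to the size of the library. *Derl2* was not matched and is not analysed here. The values come from RNA sequencing of the left lateral liver lobe of 4 wild type male Wistar rats, bought at 6 weeks of age, 1 for each condition. Animals inhaled 4.5% sevoflurane or 6% desflurane, both volatile anesthetics, for 6 h, or the same agent for less than 1 minute until they lost consciousness, which served as the control of that agent. All 4 rats went without food and water for 2 h before anesthesia and were sacrificed at the same time of day, so the rats anesthetized for 6 h had been without food for longer than the controls, and the effects of fasting and of anesthesia cannot be told apart.

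When unfolded proteins accumulate in the ER, the chaperone BiP leaves the stress sensors IRE1, PERK, and ATF6. IRE1 splices the mRNA of *Xbp1*, ATF6 is cut to release a transcription factor, and PERK slows translation and favors the translation of *Atf4*. The resulting factors raise the transcription of chaperone genes and of genes for ER-associated degradation (ERAD), which carries misfolded proteins back to the cytosol. Hepatocytes secrete most plasma proteins and therefore hold much ER, and XBP1 is also known to act in hepatic lipid synthesis. The tables give 1 value per gene, so the spliced and unspliced forms of *Xbp1*, the cleavage of ATF6, and the phosphorylation of PERK cannot be seen in them.

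The tissue label was checked with cell type markers. *Alb*, encoding albumin, had TPM values between 77519 and 92912 in the 4 libraries, and the summed level of 10 hepatocyte genes was 131128 in the sevoflurane control, 124302 after sevoflurane for 6 h, 125159 in the desflurane control, and 141019 after desflurane for 6 h. The sevoflurane control differed from the other libraries in the sum of 14 pancreatic acinar genes. The summed TPM value was 71.3 there, compared with 19.0, 17.3, and 19.3 in the same order of the other libraries. *Cela1* held 22.8 TPM in the sevoflurane control and 18.4, 15.1, and 15.2 in the other libraries, where it made up most of the sum. The defining genes *Prss1*, *Ctrb1*, and *Pnlip* were listed at 0 outside the sevoflurane control. Of the 14 genes, 10 were called lower with sevoflurane against its own control, compared with 3.3% of all genes. *Cpb1* was called higher with desflurane against its own control, at 2.59 TPM compared with 0.784. Summed values of 10 Kupffer cell genes were 719, 452, 561, and 684 in the order sevoflurane control, sevoflurane, desflurane control, and desflurane, with 3 genes called lower with sevoflurane, and those of 9 T and NK cell genes were 15.1, 5.29, 9.33, and 9.49. Plasma and B cell genes (10 matched) added up to 56.3, 52.1, 65.2, and 52.8, of which *Sdc1*, also expressed by hepatocytes, held between 45.9 and 58.2. Summed values of endothelial genes (7 matched) ranged from 269 to 308, those of 9 stellate cell and fibroblast genes from 303 to 342, and those of cholangiocyte genes (5 matched) from 14.5 to 21.4. Acinar, plasma, and Kupffer cells are all known to express ER chaperones, and the part of these cells in the results below was not tested. In bulk tissue, fewer cells of a type and less RNA per cell cannot be told apart.

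A gene was called upregulated or downregulated in a comparison when its TPM value was higher than 2 in the library with the higher value and differed more than 2-fold, without a pseudocount. With 1 rat per condition, no difference below has a replicate check and no p-value was calculated. Each 6 h library was compared with the control of its own agent and with the control of the other agent. These comparisons share libraries, so 2 of them that give the same sign are not independent. Depth corresponded to between 4.47 and 5.40 Gb of aligned sequence per library, and the median coverage of the members was between 151 and 161.

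Sevoflurane for 6 h upregulated 1 of the 32 members, *Edem1*, and downregulated 0, whereas 2.23% of all genes with a TPM value higher than 2 in either library were upregulated and 3.3% downregulated. Desflurane for 6 h upregulated 3 members, *Edem1*, *Xbp1*, and *Derl3*, compared with 2.79% of all genes, and downregulated 0, compared with 1.48%. Against the control of the other agent, *Edem1* remained the 1 upregulated member with each agent, and 0 members were downregulated. The background shares of these comparisons were 2.52% up and 2.59% down for sevoflurane, and 2.84% up and 1.58% down for desflurane. No member differed more than 2-fold between the controls, for which the background was 1.17% in either direction, or between the 6 h livers, for which it was 2.76% higher and 1.17% lower after desflurane. Because the doses of the agents differ, values of the 6 h livers are given side by side.

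Most members stayed close to their controls. The median change over the 32 members, as log2 of (TPM + 1), was 0.08 with sevoflurane and 0.05 with desflurane, beside 0.05 and 0.11 over the 9136 genes above 2 TPM in every library. The median size of the change regardless of direction was 0.19 and 0.18 for the members, 0.20 for all genes with each agent, and 0.14 between the controls for both the members and all genes. Added up, the members held 5008 TPM in the sevoflurane control, 5422 after sevoflurane, 5124 in the desflurane control, and 5687 after desflurane, or between 0.633% and 0.70% of the signal of all genes.

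**Figure D1:**
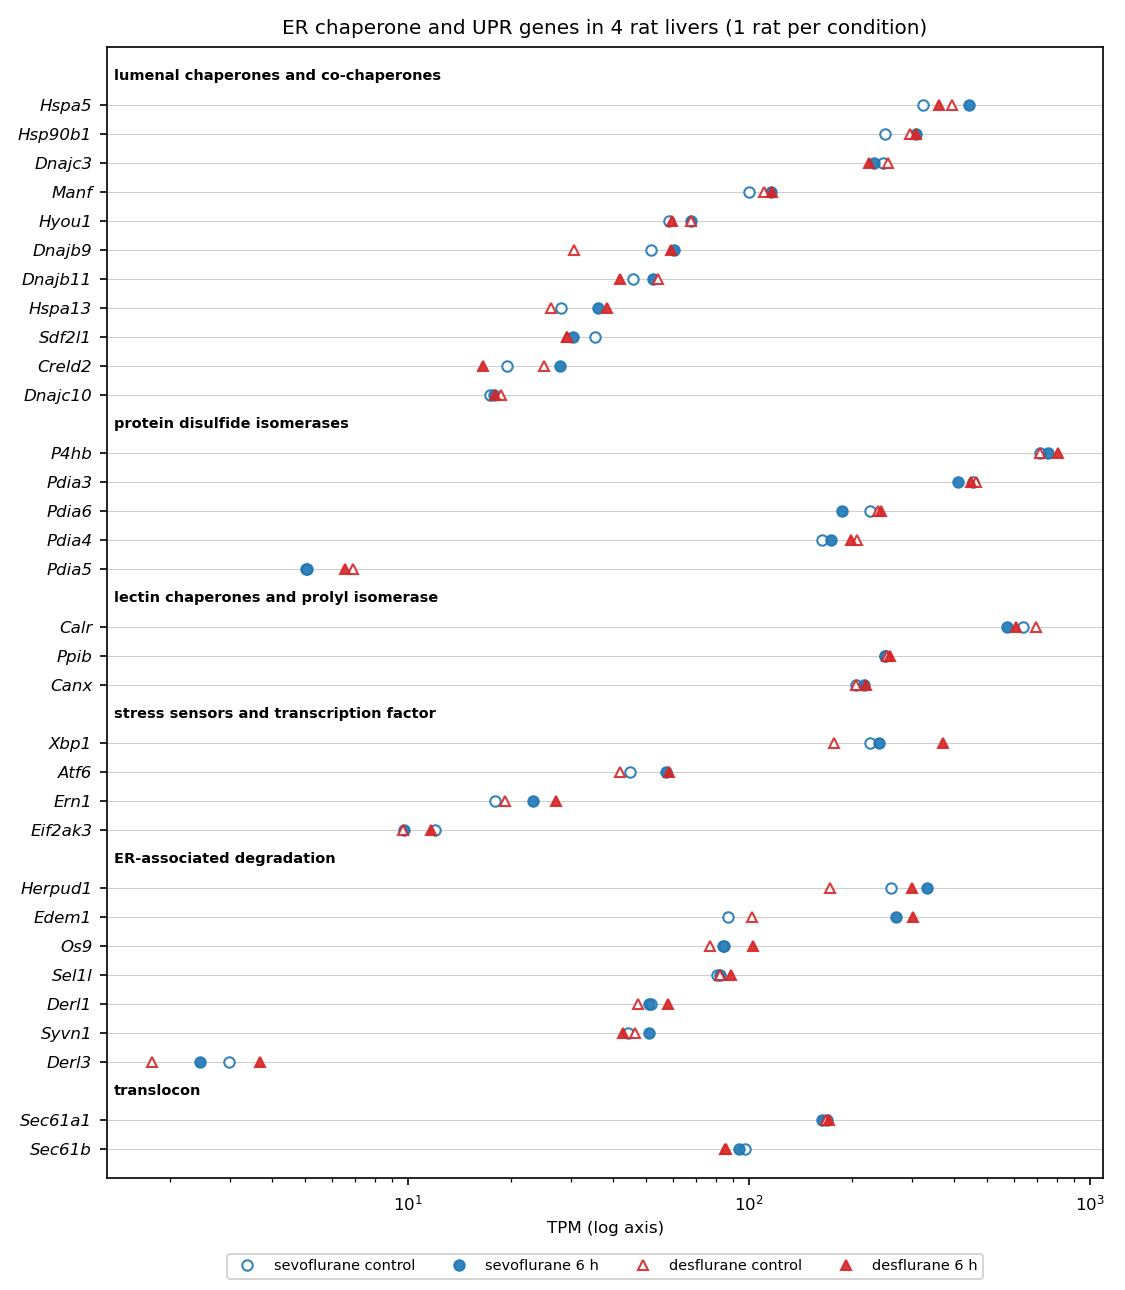
TPM values of the 32 matched members (log axis), grouped by role and ordered by mean level within each role, in the sevoflurane control (open circles), after sevoflurane for 6 h (filled circles), in the desflurane control (open triangles), and after desflurane for 6 h (filled triangles), with 1 rat per symbol. In *Edem1* both filled symbols lie far to the right of both open symbols, whereas for most members the 4 symbols lie close together or are mixed.

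Among the lumenal chaperones and their partners, the 11 members added up to 1175 TPM in the sevoflurane control, 1392 after sevoflurane, 1308 in the desflurane control, and 1272 after desflurane, and 0 were called with either agent. *Hspa5* encodes BiP, the Hsp70 of the ER and the most abundant member of this role. Its TPM value was 323 in the sevoflurane control, 441 after sevoflurane, 393 in the desflurane control, and 361 after desflurane. The highest value followed sevoflurane and the lowest was that of the sevoflurane control, so the desflurane liver lay between the controls. *Hspa5* was thus 1.37-fold higher with sevoflurane against its own control and 1.12-fold higher against the desflurane control, and with desflurane the ratios were 0.917 and 1.12.

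*Hsp90b1*, encoding GRP94, the Hsp90 of the ER, differed 1.24-fold with sevoflurane and 1.04-fold with desflurane. *Hyou1*, encoding a nucleotide exchange factor for BiP, differed 1.16-fold and 0.878-fold in the same order. For *Hyou1* alone among the members, the coverage was between 9.55% and 13.6% lower than the FPKM value corresponds to for most genes, in all 4 libraries. *Manf*, which binds BiP and is secreted under ER stress, had TPM values between 99.7 and 116. The 4 libraries therefore held similar levels of these abundant chaperones.

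Members of the DnaJ family, which deliver substrates to BiP, differed from each other. *Dnajb9*, encoding the cochaperone that returns BiP to IRE1, had 51.6 TPM in the sevoflurane control, 60.3 after sevoflurane, 30.8 in the desflurane control, and 59.0 after desflurane. The desflurane control stood apart from the other libraries, which lay close together. Accordingly, *Dnajb9* was 1.92-fold higher with desflurane against its own control but 1.14-fold higher against the sevoflurane control, and the controls differed 1.68-fold. *Dnajb11* ranged from 41.9 after desflurane to 54.0 in the desflurane control, and *Dnajc10*, encoding an ER reductase, from 17.3 to 18.7. *Dnajc3*, encoding the cochaperone p58IPK, had values of 246, 233, 256, and 224 in the order sevoflurane control, sevoflurane, desflurane control, and desflurane. Both 6 h livers were lower than both controls in *Dnajc3*, by small ratios of 0.945 and 0.876 against the own controls.

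*Creld2*, a target of ATF6 that encodes an ER protein with disulfide isomerase activity, had 19.5 TPM in the sevoflurane control, 27.9 after sevoflurane, 25.0 in the desflurane control, and 16.6 after desflurane. It was highest after sevoflurane and lowest after desflurane, with both controls in between. The ratios to the own control were 1.43 with sevoflurane and 0.662 with desflurane, and the desflurane liver held 0.593 of the level of the sevoflurane liver. *Sdf2l1*, which supports the DnaJ proteins of the ER and had one of the 3 lowest ratios of the 6 h mean to the control mean (0.924), had values of 35.4, 30.5, 29.3, and 29.2 in the order used above. Its sevoflurane control was the highest library and the other libraries hardly differed. *Hspa13*, encoding a further Hsp70 protein of microsomes, had values of 28.0, 36.1, 26.2, and 38.4 in that order. Both 6 h livers were higher than both controls in *Hspa13*, and the lower of them was 1.29-fold above the higher control.

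The 5 protein disulfide isomerases, which form and rearrange disulfide bonds of secretory proteins, differed little, and 0 were called with either agent. *P4hb*, encoding the founding member PDI and the most abundant gene of the whole list, had 714 TPM in the sevoflurane control, 752 after sevoflurane, 712 in the desflurane control, and 807 after desflurane. Both 6 h livers were higher than both controls, by 1.05-fold and 1.13-fold against the own controls. *Pdia3*, which acts on glycoproteins together with the lectin chaperones, ranged from 411 after sevoflurane to 464, and *Pdia6* from 187 after sevoflurane to 244 after desflurane. *Pdia4* ranged from 164 to 207, and *Pdia5*, the least abundant, from 5.0 to 6.88, in both cases with the desflurane control highest. Over the 5 genes, the sum was 1562 in the sevoflurane control, 1529 after sevoflurane, 1629 in the desflurane control, and 1705 after desflurane.

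*Calr*, encoding the lectin chaperone calreticulin, had the lowest ratio of the 6 h mean to the control mean of all members, 0.884. Its TPM values were 636 in the sevoflurane control, 571 after sevoflurane, 695 in the desflurane control, and 606 after desflurane. Both 6 h livers were lower than both controls, with ratios of 0.898 and 0.872 against the own controls. *Canx*, encoding the membrane-bound lectin chaperone calnexin, ranged from 206 to 220, with both 6 h livers above both controls. The prolyl isomerase gene *Ppib* ranged from 250.01 to 259. *Sec61a1*, encoding the channel through which nascent chains enter the ER, had values of 169, 164, 168, and 172 in the order sevoflurane control, sevoflurane, desflurane control, and desflurane, and *Sec61b* ranged from 84.9 to 97.6. The genes of entry and glycoprotein folding were thus nearly level across the 4 livers.

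The members that sense ER stress were the *Ern1* gene for IRE1, *Eif2ak3* for PERK, and *Atf6*, listed here with *Xbp1*. *Atf6* had 44.8 TPM in the sevoflurane control, 56.9 after sevoflurane, 41.9 in the desflurane control, and 58.4 after desflurane. The 6 h livers lay close together and above both controls, the lower of them by 1.27-fold over the higher control. *Ern1* had values of 17.9, 23.3, 19.3, and 27.2 in that order, also higher in both 6 h livers, with ratios of 1.3 and 1.41 to the own controls. *Eif2ak3* had values of 12.0, 9.72, 9.67, and 11.7, so that the sevoflurane control and the desflurane liver were the higher ones. Its ratio to the own control was 0.811 with sevoflurane and 1.21 with desflurane, but 1.01 and 0.978 against the other control.

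*Xbp1* (rn6 chr14:85753736-85758820, plus strand) encodes the transcription factor made after splicing by IRE1. It had 226 TPM in the sevoflurane control, 240.4 after sevoflurane, 178 in the desflurane control, and 372 after desflurane. The desflurane liver was the highest, and the sevoflurane liver hardly differed from its own control. Upregulation with desflurane was 2.09-fold against its own control and 1.64-fold, below the limit, against the sevoflurane control. With sevoflurane the ratios were 1.06 and 1.35. The value after desflurane was 1.55-fold that after sevoflurane, and the controls differed 1.27-fold.

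The members acting in ERAD held the largest change. *Edem1* (rn6 chr4:140886644-140918654, plus strand) encodes a lectin that hands misfolded glycoproteins to the degradation machinery. Its TPM value was 86.8 in the sevoflurane control, 271 after sevoflurane, 102 in the desflurane control, and 304 after desflurane. Both 6 h livers were far above both controls, whereas the controls differed 1.17-fold and the 6 h livers 1.12-fold. *Edem1* rose 3.12-fold with sevoflurane and 2.98-fold with desflurane against the own control, and 2.65-fold and 3.50-fold against the control of the other agent. The desflurane control, against which *Edem1* rose 2.65-fold with sevoflurane and 2.98-fold with desflurane, listed the acinar genes *Prss1*, *Ctrb1*, and *Pnlip* at 0. Coverage of *Edem1* was 156, 458, 191, and 511 in the order used above.

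In 6 h livers the lower *Edem1* value was 2.65-fold above the higher control, which ranked 12 among the 9136 genes. It was the 1 member for which this ratio exceeded 2, compared with 0.361% of the genes. By the ratio to the own control, *Edem1* ranked 25 among the same genes with sevoflurane and 51 with desflurane. Rows that StringTie assembled at this locus from the same reads held TPM values of 86.8, 253, 102, and 285, close to those of the annotated row.

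*Herpud1*, encoding a membrane protein that recruits substrates to the HRD1 ligase, was the most abundant ERAD member by the mean over the 4 libraries. Its TPM values were 261 in the sevoflurane control, 332 after sevoflurane, 173 in the desflurane control, and 301 after desflurane. As in *Dnajb9*, the desflurane control was the lowest library, 0.660 of the sevoflurane control. The ratios with desflurane were therefore 1.75 against its own control and 1.15 against the sevoflurane control, and those with sevoflurane were 1.27 and 1.92. *Derl3*, encoding a derlin of the retrotranslocation channel, had the lowest level of all members, with values of 2.99, 2.46, 1.78, and 3.67 in the order used above. The 2.07-fold upregulation of *Derl3* with desflurane became 1.23-fold against the sevoflurane control, and the lowest library was the desflurane control. The rn6 tables list *Derl3* on 2 near-identical rows, on chr20 and on an unplaced sequence, with nearly equal values that were added up here, and its coverage was between 3.32 and 6.19. How reads were divided between these copies is uncertain.

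Of the other ERAD members, *Os9*, encoding a lectin that reads trimmed glycans, had TPM values of 84.0, 84.5, 77.0, and 103 in the same order, and the desflurane liver was the highest. *Sel1l* and *Syvn1*, encoding the adaptor and the ligase of the HRD1 complex, ranged from 80.5 to 88.7 and from 42.7 to 50.8. *Derl1* ranged from 47.3 to 57.8. The ratio of the highest to the lowest library was thus small for the core of the complex, unlike for *Edem1*.

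**Figure D2:**
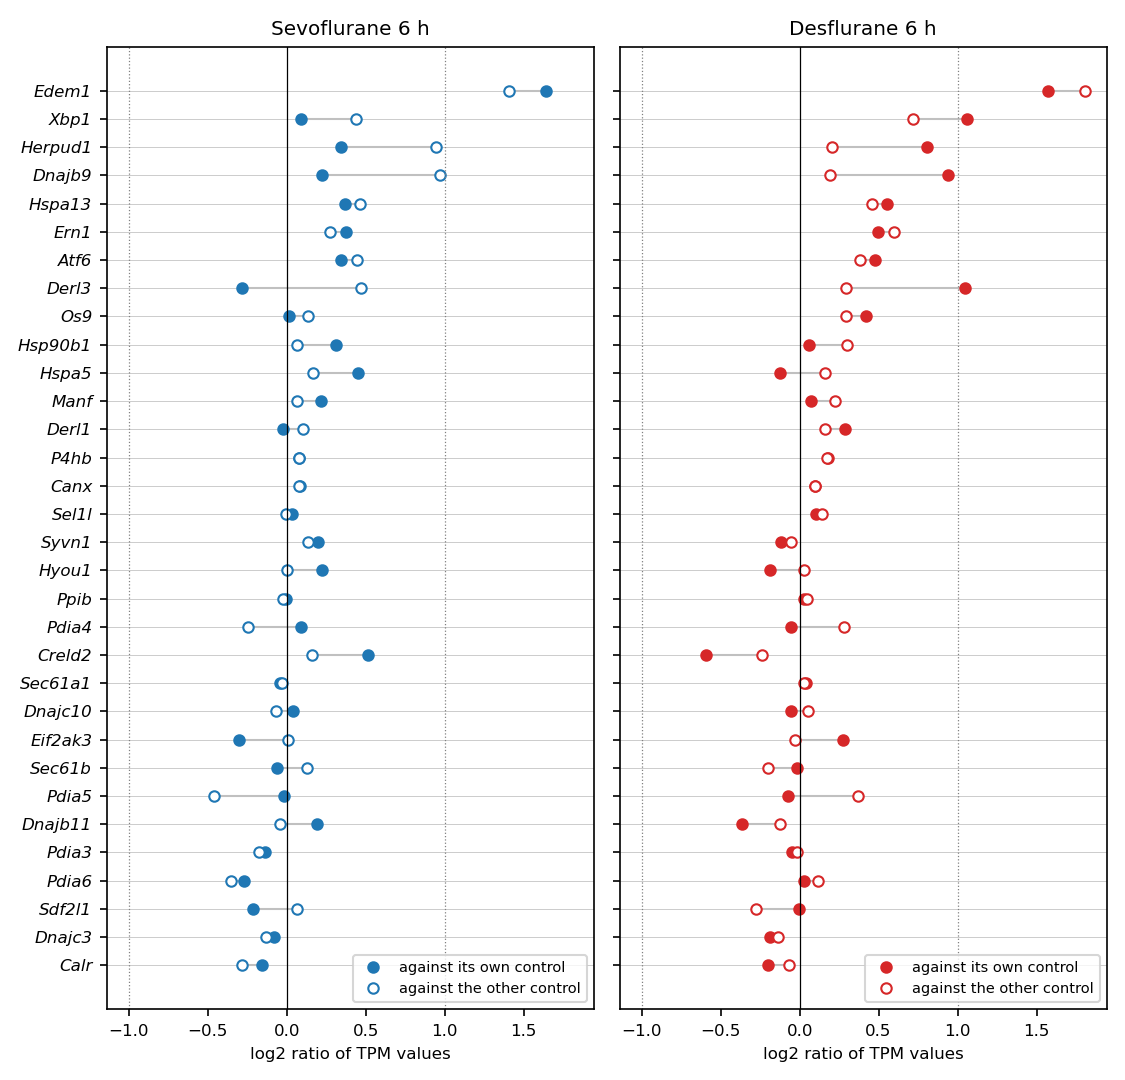
log2 ratios of TPM values (horizontal axis) of the 32 members after sevoflurane for 6 h (left) and desflurane for 6 h (right), against the control of the same agent (filled) and of the other agent (open), with 1 rat per library. Dotted lines mark 2-fold differences. *Edem1* lies beyond the line in all 4 ratios (1.64 and 1.41 with sevoflurane, 1.57 and 1.81 with desflurane), whereas *Xbp1* and *Derl3* pass it with the desflurane control only, and the long connecting lines of *Herpud1*, *Dnajb9*, and *Derl3* show the difference between the controls.

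The choice of control changed the sign of the difference for 9 members with sevoflurane and for 6 with desflurane. With a smaller limit of 1.3-fold, the members higher than their own control after sevoflurane were *Hspa5*, *Creld2*, and *Edem1* (3 of 32, beside 16.7% of all genes), and 0 were lower (13.6%). After desflurane, 9 members were higher (21.5% of all genes), namely *Dnajb9*, *Hspa13*, *Ern1*, *Atf6*, *Xbp1*, *Herpud1*, *Edem1*, *Derl3*, and *Os9*, and *Creld2* was lower (8.28%). Against the other control, 7 members were higher after sevoflurane (18.1%), including *Dnajb9*, *Herpud1*, and *Derl3*, and *Pdia5* was lower (13.1%). After desflurane 5 members were higher than the sevoflurane control (20.2%), from which those 3 genes were absent, and 0 were lower (8.61%). The same 3 genes were the ones more than 1.3-fold lower in the desflurane control than in the sevoflurane control (9.16% of all genes), and *Pdia5* was the 1 member that was higher there (8.12%). *Hspa13*, *Atf6*, *Xbp1*, and *Edem1* were higher by more than 1.3-fold in 3 of the 4 comparisons or more. Of these, only *Edem1* passed this limit with sevoflurane against its own control. The comparisons share libraries, and the share of all genes that passed as often was not counted.

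Between the 6 h livers, *Pdia5*, *Pdia6*, *Xbp1*, and *Derl3* were more than 1.3-fold higher after desflurane (17.9% of all genes) and *Creld2* was more than 1.3-fold lower (9.13%).

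Agreement of both 6 h livers against both controls was counted for the 31 members above 2 TPM in every library. The 6 h livers were both above both controls for 12 members, or 38.7%, compared with 34.4% of the 9136 genes, and both below for 3, or 9.68%, compared with 13%. When the libraries were scaled by the median of ratios, these counts became 8 and 7, compared with 22.7% and 22.9% of genes. The 5 settings tried were TPM as deposited, median of ratios, rescaled annotated rows, FPKM, and the largest row of a symbol. *Edem1*, *Xbp1*, *Atf6*, *Ern1*, and *Hspa13* were above both controls under each of them, and *Calr*, *Dnajc3*, and *Pdia3* were below both. Each of these genes has 1 row, so the last setting could not change its values. The share of all genes that stayed on one side under every setting was not counted. The lower 6 h value exceeded the higher control by more than 1.2-fold for *Edem1*, *Atf6*, *Hspa13*, and *Ern1*, 4 of 31 members, compared with 8.41% of the genes.

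**Figure D3:**
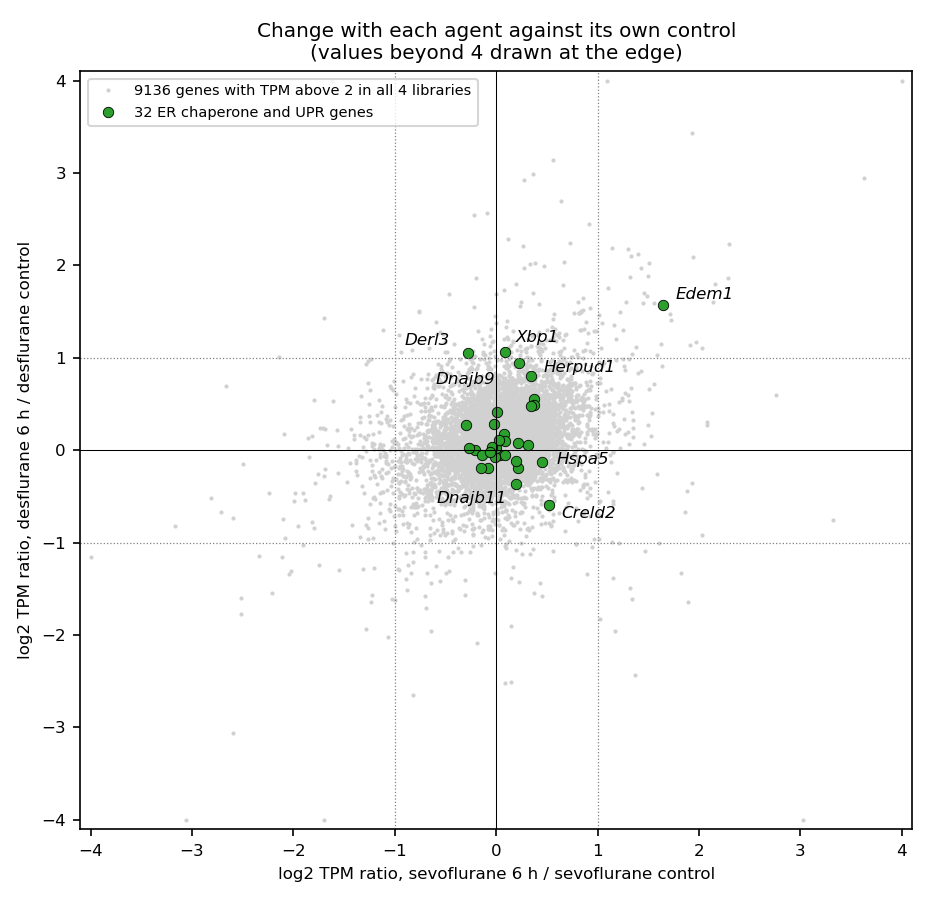
log2 ratio of TPM values against the own control with sevoflurane (horizontal) and with desflurane (vertical) for the 9136 genes above 2 TPM in every library (gray) and for the 32 members (green), 1 rat per library. Dotted lines mark 2-fold differences. *Edem1* is the member in the upper right corner beyond both lines, *Xbp1* and *Derl3* pass the line for desflurane only, *Creld2* lies to the lower right, and most members lie within the dense center of all genes.

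Promoter sequences were examined because ATF6 and XBP1 act through short DNA elements. The ER stress response element (ERSE), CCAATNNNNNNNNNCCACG, was itself defined from promoters of chaperone genes such as *Hspa5*, so its presence in members is not independent of their choice. Windows from 250 bases before to 50 bases after the start were taken from RefSeq on GRCr8, a different build from the rn6 tables. Of the 32 members, 24 were matched. The other 8 were not searched, namely *Ern1*, *Atf6*, *Manf*, *Pdia3*, *Pdia6*, *Derl1*, *Os9*, and *Sec61a1*. Both strands were searched. Each member was counted once, whereas the shares given in percent are over promoters, and a gene can have several. The ERSE was found in 8 of the 24 matched members and in 0.0657% of all 33469 promoters. ERSE-II (ATTGGNCCACG) was found in 3 of 24 and 0.0508%. Counted by gene symbol, the ERSE was found for 21 of 27457 symbols and ERSE-II for 17. The core of the UPR element (TGACGTGG) was found in 2 of 24, *Hyou1* and *Dnajc10*, and in 0.595% of promoters, or for 187 symbols. The short parts CCACG and CCAAT, which lie within ERSE and ERSE-II in one direction or the other, were found in 22 and 20 of 24 and in 31.6% and 37.5% of promoters, and the core of the UPR element contains CCACG read in reverse.

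The following elements are shown because their genes differ in their ratios to the controls, which were all below 1 in *Calr* and *Dnajc3* and all above 1 in *Xbp1* and *Herpud1*. Capitals mark the fixed letters of the named element, or their reverse complements, and other copies of CCAAT or CCACG in a line are not marked. Each line is written along the strand of the gene.
Hspa5, ERSE, 43 bases before the start, GRCr8 chr3:38452958-38453006, plus strand: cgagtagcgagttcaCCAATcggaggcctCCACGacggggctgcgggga
Creld2, ERSE in reverse, 145 bases before the start, chr7:121789224-121789272, plus strand: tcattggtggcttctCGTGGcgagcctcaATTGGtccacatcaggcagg
Dnajc3, ERSE, 133 bases before the start, chr15:102432519-102432567, plus strand: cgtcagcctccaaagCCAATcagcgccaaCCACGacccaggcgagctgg
Calr, ERSE in reverse, 232 bases before the start, chr19:40213120-40213168, plus strand: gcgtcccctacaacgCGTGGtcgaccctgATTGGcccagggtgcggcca
Xbp1, ERSE, 65 bases before the start, chr14:84604543-84604591, plus strand: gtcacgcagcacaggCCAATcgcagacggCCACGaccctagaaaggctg
Derl3, ERSE in reverse, 154 bases before the start, chr20:12766586-12766634, minus strand: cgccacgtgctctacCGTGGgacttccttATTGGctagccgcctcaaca
Herpud1, ERSE-II, 124 bases before the start, chr19:10614806-10614846, minus strand: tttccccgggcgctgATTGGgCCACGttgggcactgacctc
Hyou1, ERSE-II in reverse, 88 bases before the start, chr8:53602779-53602819, plus strand: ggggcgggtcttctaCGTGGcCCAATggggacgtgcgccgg

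With desflurane, *Xbp1* and *Derl3*, which hold an ERSE, were called, whereas *Calr*, *Dnajc3*, and *Creld2*, which also hold one, had ratios of 0.872, 0.876, and 0.662. *Hsp90b1* and *Canx* hold an ERSE too, and *Dnajb11* an ERSE-II. Over the 11 members with ERSE or ERSE-II, the median change against the own control was 0.19 with sevoflurane and -0.12 with desflurane, and 8 and 5 of them were higher. Over the 13 members with neither, it was 0.04 and 0.03, and 8 and 7 were higher. Against the other control, the medians were 0.08 and 0.10 for the former and 0.06 and 0.14 for the latter. The gap between the sets thus depended on the control with both agents.

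*Edem1*, the member with the largest change, held neither ERSE, ERSE-II, nor the core of the UPR element in its window, which says only that these letters are not in it. The 250 bases before its start are shown with the 1 CCACG (in reverse, 214 bases before the start) and the 1 CCAAT (117 bases before the start) in capitals.
Edem1, GRCr8 chr4:143353425-143353674, plus strand: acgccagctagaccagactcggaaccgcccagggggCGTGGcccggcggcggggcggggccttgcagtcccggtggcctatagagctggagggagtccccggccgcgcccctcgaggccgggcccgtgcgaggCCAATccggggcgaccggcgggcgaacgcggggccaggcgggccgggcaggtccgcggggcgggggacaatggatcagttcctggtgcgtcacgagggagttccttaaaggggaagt

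Genes of the same pathways that are not members were counted by the same rule. Over all genes, this rule called 2.23% up and 3.3% down with sevoflurane, and 2.79% up and 1.48% down with desflurane. Of 21 further ERAD genes, 0 were called with either agent, with medians of 0.13 and 0.13. The 2 close relatives of *Edem1* among them, named after their values were seen, had TPM values of 41.3, 38.9, 34.7, and 40.4 (*Edem2*) and 33.2, 41.0, 33.8, and 45.6 (*Edem3*) in the order sevoflurane control, sevoflurane, desflurane control, and desflurane. Their ratios to the own control were 0.941 and 1.16 for *Edem2* and 1.23 and 1.35 for *Edem3*, beside 3.12 and 2.98 for *Edem1*. The most abundant gene of this list, *Vcp*, encoding the ATPase that extracts substrates from the membrane, ranged from 224 to 239.

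Of 13 genes of oxidative folding, 0 were called with either agent, with medians of 0.13 and 0.05, and the most abundant, *Prdx4*, ranged from 116 to 129. Of 17 genes of glycan processing and folding, *Ppic*, encoding a prolyl isomerase, was called with sevoflurane, with values of 1.02, 3.45, 3.36, and 2.36 in the order used above and the sevoflurane control as the lowest library. The medians of this list were 0.12 and 0.10, and the most abundant gene, *Serp1*, ranged from 140 to 176. Of 28 genes of translocation, signal peptide removal, and glycan transfer, 0 were called, with medians of -0.04 and 0.06, and *Tram1*, the most abundant, ranged from 281 to 320. Lists of this size would hold few calls at the shares of all genes given above, so these counts do not set the lists apart.

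In the list of the PERK branch and other regulators, calls against the own controls fell on 2 genes. This list was chosen with earlier results of these data known, so the count does not set it apart. It holds 21 genes, of which 17 were above 2 TPM in every library. With sevoflurane 2 were upregulated, *Trib3* and *Chac1*, both targets of ATF4, compared with 2.23% of all genes. With desflurane *Trib3* was upregulated (2.79% of all genes) and *Chac1* downregulated (1.48%). *Trib3*, encoding a pseudokinase, had 3.79 TPM in the sevoflurane control, 14.9 after sevoflurane, 4.31 in the desflurane control, and 9.69 after desflurane, so both 6 h livers were above both controls. It rose 3.93-fold and 2.25-fold against the own controls. *Chac1*, encoding an enzyme that breaks down glutathione, had values of 2.36, 6.89, 3.26, and 1.26, highest after sevoflurane and lowest after desflurane.

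*Atf4* and *Ddit3*, the transcription factor genes of this branch, were named after their values were seen. *Atf4* had values of 99.95, 172, 136, and 109 in the same order, with the sevoflurane liver highest, and *Ddit3*, encoding CHOP, had values of 4.98, 8.55, 6.89, and 7.12. Neither was called. The median over the list was 0.01 with sevoflurane and 0.05 with desflurane, and the most abundant gene, *Tmbim6*, encoding an antiapoptotic protein of the ER membrane, ranged from 683 to 740.

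The 29 secreted hepatocyte proteins, the main cargo of the ER in this tissue, had a median change of -0.10 with sevoflurane and 0.11 with desflurane. *Apoa2*, encoding an apolipoprotein of high-density lipoprotein, was downregulated with sevoflurane, with 1644 TPM in the sevoflurane control, 674 after sevoflurane, 1288 in the desflurane control, and 1282 after desflurane. The sevoflurane liver was the lowest of the 4 in *Apoa2*. This was the 1 of 29 cargo genes called with either agent, beside 3.3% of all genes downregulated with sevoflurane.

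**Figure D4:**
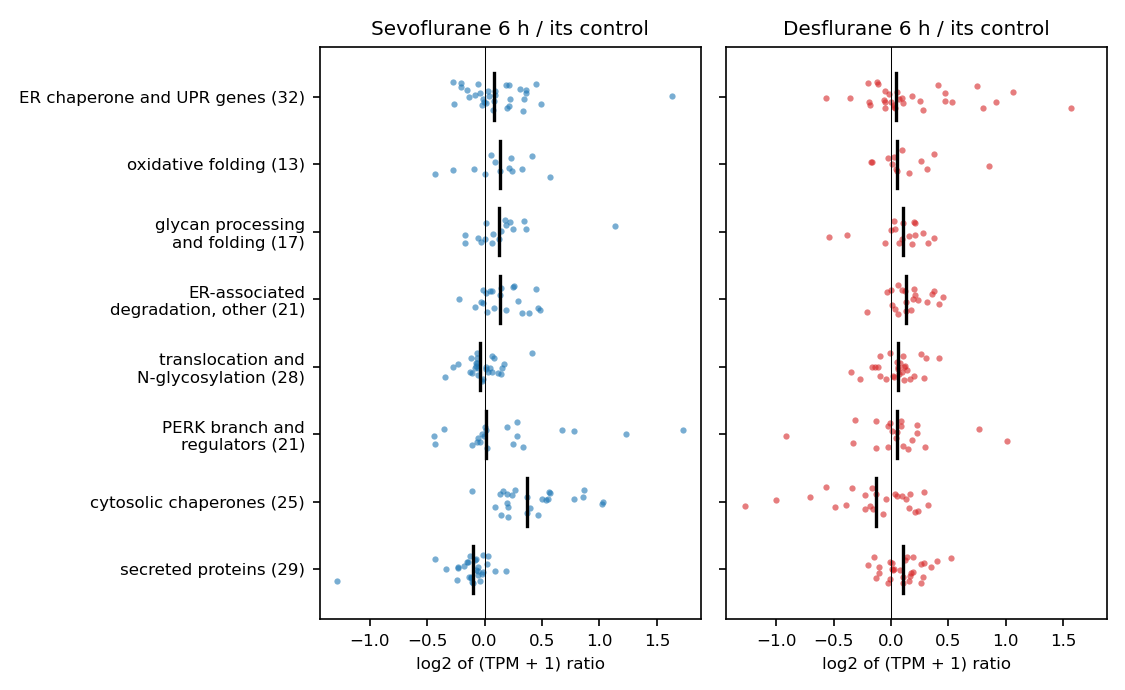
log2 ratio of (TPM + 1) against the own control with sevoflurane (left) and desflurane (right) for the 32 members and for 7 lists of related genes, with the number of genes in parentheses. Each point is 1 gene from 1 rat per condition, and black bars mark medians. The bar of the members lies at 0.08 and 0.05, near 0 as for most lists, whereas that of the cytosolic chaperones lies at 0.37 with sevoflurane and -0.13 with desflurane. The list of cytosolic chaperones also holds the mitochondrial chaperone genes *Hspd1* and *Hspe1*.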

How the data were processed

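Total RNA of 4 rat livers was sequenced, with 1 rat per condition, and conditions were taken from the sample labels. The authors trimmed the reads with sickle, mapped them to rn6 with HISAT2, sorted them with SAMtools, and ran StringTie with the refGene annotation. In the deposited tables, the TPM signal sums to 1000000 over rows assembled by StringTie, and the annotated rows used here hold a further 779824 to 813454 on that scale. The deposited coverage is the mean read depth over exons, not normalized for library size, and the FPKM values were normalized for library size by the authors. FPKM was used for one alternative and, divided by coverage, for the depth. Read counts are not used here, so the counting error of single values is unknown.

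Annotated rows spanning 200 bases or fewer were removed, TPM values were summed per symbol, and each 6 h library was compared with both controls by the rule of the paper (TPM higher than 2 and more than 2-fold). Medians used a pseudocount of 1 TPM. The members and lists were chosen with earlier results of these data known. Levels in every library are given for members called in any of 6 comparisons, for the most abundant member of each role, and for the 3 largest and 3 smallest ratios of 6 h to control means, and the levels of other members given in full were chosen after their values were seen. Of each related list, called genes and the most abundant gene are named. The cell type lists were hepatocytes, plasma and B cells, pancreatic acinar cells, Kupffer cells, endothelial cells, stellate cells and fibroblasts, cholangiocytes, and T and NK cells. Motifs were matched as letters in RefSeq promoters. Alternatives covered the TPM and fold limits, the pseudocount, 4 other scalings or row choices, and the length filter. The rule was run on simulated data with changes set well beyond its fold limit and little noise. That checks the code only and gives no measure of variation between rats. Python 3.11.15 was used with numpy 2.4.6, pandas 2.3.3, and matplotlib 3.10.9.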

Additional observations from a re-analysis of the deposited data

Results flagged for a closer look

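Several genes were higher with one agent and lower with the other, each against its own control and by more than 1.1-fold in each direction. With 1 rat per condition, each of these differences was not tested. The values below are the log2 change with sevoflurane minus that with desflurane. Among the members, the difference was 0.41 for *Hyou1*, 0.56 for *Dnajb11*, and 1.11 for *Creld2*, all higher with sevoflurane. It was -0.58 for *Eif2ak3* and -1.33 for *Derl3*, which were higher with desflurane. For *Hyou1*, *Dnajb11*, and *Creld2* the desflurane control was higher than the sevoflurane control, and for *Eif2ak3* and *Derl3* it was lower, so the difference between the controls has the same sign as each of these values. *Creld2* was the member for which the 6 h livers themselves differed most, with 27.9 TPM after sevoflurane and 16.6 after desflurane.

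Outside the members, the difference was 2.92 for *Chac1* and 1.11 for *Atf4* in the PERK branch, and 2.27 for the prolyl isomerase gene *Ppic*. It was 1.73 for *Hspa8*, 1.81 for *Hsp90aa1*, 0.88 for *Hsp90ab1*, and 2.24 for *Hsph1*, which encode chaperones of the cytosol. It was -1.42 for *Qsox1*, a gene of oxidative folding with TPM values of 9.57, 6.82, 7.92, and 15.1 in the order sevoflurane control, sevoflurane, desflurane control, and desflurane, named after its values were seen. Among the 154 genes of the 7 related lists, 14 were higher with sevoflurane and lower with desflurane by this limit and 4 the other way. Genes above 2 TPM in at least 1 library and above 0 in all were counted. Most of the 14 came from the list of cytosolic chaperones, and the share of all genes that met this limit was not counted.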

How the results depend on the processing

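With 1 library per condition, no replicate could be left out. No paired analysis was possible because each condition has 1 rat. The calls have no replicate check, and low values such as those of *Derl3* rest on little coverage. In all 9 alternatives to the calling rule, *Edem1* was called in each of the 4 comparisons of a 6 h liver with a control. Of 196 changes of single members under other controls, other scaling, or rows assembled by StringTie, 190 stayed on their side of the 2-fold limit. Most of these were uncalled changes that stayed uncalled, so this count does not measure how stable the calls are. Called changes were those of *Edem1* with both agents and of *Xbp1* and *Derl3* with desflurane. Only those of *Edem1* stayed above the limit throughout, and 0 of the called changes changed sign. Below the limit, signs did change against the other control, for 9 members with sevoflurane and 6 with desflurane. The other 6 were *Xbp1* and *Derl3* with desflurane, which fell below 2-fold against the other control (0.72 and 0.29 on the log2 scale), against the mean of both controls (0.88 and 0.62), and after median-of-ratios scaling (0.94 and 0.92). The cause was not tested.

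The 3 members upregulated with desflurane became 5 with a limit of 1.5-fold, 1 (*Edem1*) with median-of-ratios scaling or FPKM, and 2 (without *Derl3*) with a TPM limit of 5, a pseudocount of 1, rescaled annotated rows, or the largest row of a symbol. With a limit of 1.5-fold, 1 member (*Creld2*) was lower with desflurane, 3 were higher with sevoflurane against the desflurane control, 3 were higher with desflurane against the sevoflurane control, 3 were lower in the desflurane control than in the sevoflurane control, and 1 was higher and 1 lower after desflurane than after sevoflurane. With FPKM, 3 were higher with sevoflurane against the desflurane control. The median of all genes with desflurane against its own control was 0.12 on the log2 TPM scale without a pseudocount and about 0 after median-of-ratios scaling, so the median change of the members with desflurane moved from 0.05 to -0.0798 with this scaling, to -0.0141 when annotated rows were rescaled to the same total, and to -0.0303 with FPKM. Against the other control, the median with sevoflurane moved from 0.07 to -0.0011 with median-of-ratios scaling and to 0.20 with FPKM, and that with desflurane from 0.15 to 0.0440 and -0.103. With FPKM, the median of all genes between the controls was -0.21 (desflurane against sevoflurane), compared with -0.03 in TPM. Without *Edem1*, *Xbp1*, and *Derl3*, a choice made after seeing the data, the medians against the own controls were 0.07 with sevoflurane and 0.03 with desflurane.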

Other observations

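A list of cytosolic chaperones, which act outside the ER, differed between the agents more evenly than the members did. The list also holds *Hspd1* and *Hspe1*, which encode mitochondrial chaperones. With sevoflurane, 24 of the 25 genes were higher than in the own control, compared with 5213 of the 9136 genes above 2 TPM in every library. The median change was 0.37 on the log2 scale, beside 0.05 over the 9136 genes. With desflurane 10 of the 25 were higher and 15 lower, compared with 6125 and 3011 of the 9136. The median with desflurane was -0.13, beside 0.11. *Hspa8*, encoding the constitutive Hsp70, had 237 TPM in the sevoflurane control, 482 after sevoflurane, 255 in the desflurane control, and 156 after desflurane, and was upregulated with sevoflurane. *Hspa1b*, encoding an inducible Hsp70, had values of 0.480, 2.03, 0.511, and 0.842 in that order and was also called with sevoflurane, near the limit of 2 TPM. *Hsp90aa1* had values of 68.1, 117, 80.1, and 39.5, and *Hsph1*, encoding a nucleotide exchange factor, had values of 21.1, 39.3, 27.3, and 10.8. Both were downregulated with desflurane. The most abundant gene of the list, *Hsp90ab1*, ranged from 243 to 422. All 25 genes were lower in the desflurane liver than in the sevoflurane liver, compared with 3852 of the 9136 genes. Of the 25, 6 were called by the rule of TPM higher than 2 and more than 2-fold, compared with 1.17% of all genes. The rats received different doses of the agents. The summed level of the list was 1850, 2512, 1895, and 1626 TPM, whereas that of the lumenal ER chaperones was 1175, 1392, 1308, and 1272.

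In promoters of genes that are not members, the ERSE was found for 13 further symbols, of which 8 were matched in the tables. *Zfand2a*, known as a gene induced by arsenite and heat, had TPM values of 4.99, 10.0, 4.33, and 5.75 and was 2.01-fold higher with sevoflurane. *Ero1b*, encoding an oxidase that feeds protein disulfide isomerases, had values of 37.6, 56.4, 53.2, and 63.9, with the sevoflurane control as the lowest library. Both were picked with their values in view.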
